A study of Mus musculus with 24 samples.

Results

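Heavy polysomal RNA of the dorsal striatum (DS) was compared between rpS6 knockin mice, called rpS6P-/- here, and wild-type littermates, over every gene of the count table. The comparison used 6 of the 24 libraries of the series, 3 from knockin and 3 from wild-type mice, chosen by region, genotype and kind of RNA as the labels give them. In the knockin all 5 phosphorylatable serines of ribosomal protein S6 are replaced by alanine in every cell of the body, and both genotypes were on a mixed C57Bl/6/Sv129/ICR background. Males and females were used, and each library was made from pooled mice, whose number differs between the sources, so a difference between libraries of a group also contains differences between pools. Age and the sex of the mice in each pool were not given in the sources used here. Nothing in the labels says that replicates came from separate cohorts, so p-values measure the spread between these pools. The other 18 libraries were used for values set side by side, for tests of the difference between kinds of RNA or regions, and for a fit of all 24 libraries: 6 whole lysates of the DS, and 6 heavy polysomal and 6 lysate libraries of the nucleus accumbens (Acb).

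Ribosomal protein S6 (rpS6) sits in the small ribosomal subunit and is phosphorylated by S6 kinases downstream of mTOR and by other kinases when neurons are active. An mRNA carrying many ribosomes sediments deep in a sucrose gradient, and the RNA of fractions with 4 or more ribosomes ("heavy polysomal fractions") was sequenced here as a measure of what is being translated. How many ribosomes an mRNA can hold depends on the length of its coding sequence, and a very short coding sequence has little room for them. The DS is built mainly of medium spiny neurons that carry D1 or D2 dopamine receptors. RNA bound to polysomes depends both on how much of an mRNA a tissue contains and on the share of it that is loaded with ribosomes, and in bulk tissue fewer cells of a type cannot be told apart from less RNA per cell.

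The 3 wild-type libraries held between 11109431 and 23021073 reads assigned to genes and the knockin libraries between 14964662 and 27128209. The non-coding RNA *Bc1*, abundant in neuronal dendrites, took from 1.76% to 3.85% of the reads. Genes of medium spiny neurons were at high levels in every library: 12 markers, among them *Ppp1r1b*, *Drd1a* and *Drd2*, summed to between 6800 and 7590 CPM (reads per 1000000 of the TMM-normalised library size) in wild-type mice and between 6810 and 8820 in knockin mice. *Xist*, the RNA of the inactive X chromosome, had no read in knockin replicate 3 and between 12 and 114 reads in the other 5 libraries, so the sexes were not pooled alike. *Rps6* itself was at 379, 330 and 339 CPM in wild-type libraries and at 385, 378 and 381 CPM in knockin libraries. Its log2 fold change (knockin over wild-type, as for all fold changes given here) was 0.13 ± 0.17 (SE) with an adjusted p of 0.966. A knockin of single codons leaves the read count as it was, so this count does not check the genotype labels.

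Few genes differed between genotypes in DS heavy polysomal fractions once p-values were adjusted. Of 15896 genes tested, 7 passed an adjusted p of 0.05 in edgeR's quasi-likelihood test, which is 0.044% of them. The 5 genes *Cwc22*, *Usmg5*, *Mt2*, *Tmsb4x* and *Ndufa3* rose (0.0315%), and the 2 genes *Acer2* and *Myl4* fell (0.0126%). DESeq2 passed 17 genes, 5 of them shared with edgeR. Among genes described below, those passed by DESeq2 alone were *Mt1*, *Ndufa1*, *Atp5e*, *Tomm7*, *Tmsb10* and *Pcp4* (higher) and *Sncb*, *Bex2* and *Nap1l5* (lower). DESeq2 left out *Tmsb4x*, at an adjusted p of 0.383, and gave *Acer2* no adjusted p. At an unadjusted p under 0.05, 1021 genes differed (6.42% of those tested, where 5% would be reached by chance), 588 of them higher (3.7%) and 433 lower (2.72%) in knockin mice. The median log2 fold change over all genes was 0.03. Among 11916 genes with at least 50 reads on average, all knockin libraries lay above all wild-type libraries for 719 (6.03%) and below them for 679 (5.7%). In what follows "rose" and "fell" are kept for genes past the adjusted threshold, and other genes are described as higher or lower at their unadjusted p. The number of genes past the adjusted threshold moved with each library left out: it was 2 without wild-type replicate 1, 19 without wild-type replicate 2, 29 without wild-type replicate 3, 1 without knockin replicate 1, 0 without knockin replicate 2 (703 at an unadjusted p under 0.05) and 3 without knockin replicate 3. *Cwc22* was among them in every case but the fit without knockin replicate 2, while *Ndufa3* was in none of these 6 fits. *Mt2*, *Usmg5*, *Tmsb4x* and *Acer2* passed only without wild-type replicate 2 or 3, and *Myl4* passed also without knockin replicate 3. With a trend on transcript length removed from each library, *Mt2* (0.80, adjusted p = 0.0701), *Usmg5* (0.73, adjusted p = 0.0818) and *Ndufa3* (0.77, adjusted p = 0.0724) no longer passed. With a trend on coding length removed, these 3 and *Tmsb4x* did not pass, and with a GC trend removed, *Usmg5*, *Ndufa3* and *Tmsb4x* did not. The stricter filter of filterByExpr left *Cwc22* alone.

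**Figure D1:**
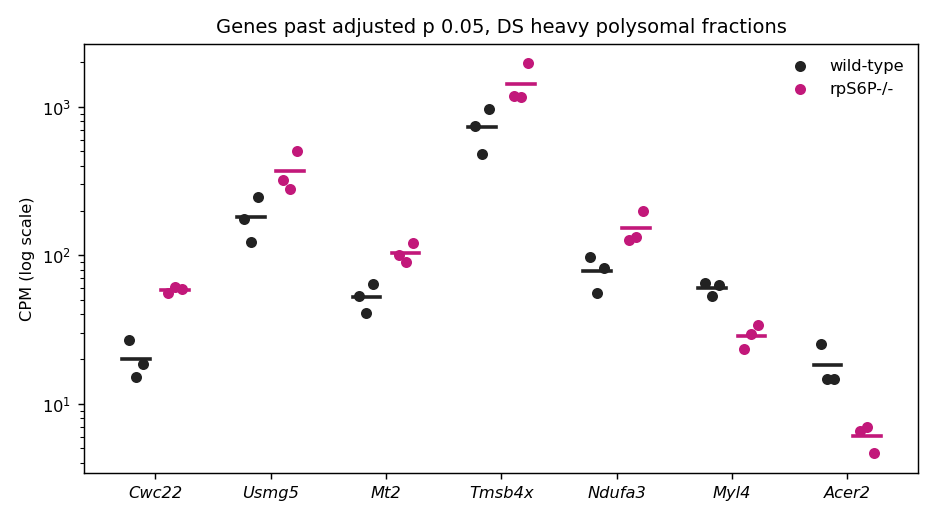
CPM on a log axis for the 7 genes past an adjusted p of 0.05, with 3 wild-type libraries (black points) and 3 knockin libraries (magenta points) per gene and a bar at each group mean. The groups do not overlap in any of the 7 genes, and the knockin points lie below the wild-type points only in *Myl4* and *Acer2*.

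*Cwc22*, which encodes a splicing factor that also helps to load the exon junction complex, had the lowest p of all genes. It lay at 26.8, 15.1 and 18.5 CPM in wild-type libraries and at 55.7, 61.2 and 59.4 CPM in knockin libraries, with no overlap. The log2 fold change was 1.55 ± 0.22 (adjusted p = 0.000219). In whole DS lysates it was 1.50 ± 0.19 (adjusted p = 5.48e-06), and the difference between both kinds of RNA had an unadjusted p of 0.951, so the RNA before fractionation differed by a like amount. In heavy polysomal fractions of the Acb the knockin libraries were at 68.9, 66.3 and 71.8 CPM, whereas wild-type libraries were at 18.4, 56.6 and 15.3 CPM, replicate 2 standing near the knockin level. In Acb lysates wild-type replicate 2 again stood apart, at 80.9 CPM beside 24 and 24.4 CPM. *Cwc22* lies at chr2:77881159-77946356 (GRCm38), in a segment whose copy number is known to differ between mouse strains, and reads of near-identical copies cannot be told apart by counting, so its level is uncertain in that sense.

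*Acer2*, which encodes an alkaline ceramidase of the Golgi, was the gene past the threshold that lies next to the altered locus: *Rps6* ends at position 86857367 of chromosome 4 and *Acer2* starts 17 kb further on, at chr4:86874348-86932524. Its level was 25.1, 14.6 and 14.7 CPM in wild-type libraries against 6.51, 6.93 and 4.63 CPM in knockin libraries, a log2 fold change of -1.59 ± 0.32 (adjusted p = 0.0382). It was lower in the knockin in the other kinds of library as well at an unadjusted p under 0.05, with log2 fold changes of -1.30 ± 0.44 in DS lysates, -1.89 ± 0.33 in Acb heavy polysomal fractions and -1.57 ± 0.54 in Acb lysates. Of the 50 genes tested within 10 Mb on either side of *Rps6*, 1 was higher and 3 were lower at an unadjusted p under 0.05, or 8.0% beside 6.42% of all genes. Besides *Acer2* these were *Ptprd*, a receptor tyrosine phosphatase of synapses (log2 fold change 0.39), *Ttc39b* (-0.49) and *Klhl9*, a ubiquitin ligase adaptor (-0.41). *Dennd4c*, the neighbour on the other side of *Rps6*, was at 0.09 ± 0.30 and did not pass. *Slc24a2*, the next gene tested beyond *Acer2*, was at -0.10 ± 0.18 and did not pass either.

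*Myl4* encodes the light chain of myosin found in embryonic muscle and heart atria. It was at 65, 53.4 and 63 CPM in wild-type and at 23.2, 29.4 and 33.7 CPM in knockin libraries, a log2 fold change of -1.07 ± 0.21 (adjusted p = 0.0382). The change in DS lysates was -0.37 ± 0.25 and those in the Acb were -0.00 ± 0.49 in heavy polysomal fractions and 0.91 ± 1.74 in lysates, the latter with little precision. Cortical markers were measured beside it: 2 of the 11 on the list, the transcription factors *Emx1* (-0.94 ± 0.38) and *Neurod2* (-0.65 ± 0.20), were lower at an unadjusted p under 0.05 and none was higher. That is 18.2% lower, beside 2.72% of all genes. The 11 summed to between 1370 and 1440 CPM in wild-type and between 1200 and 1530 CPM in knockin libraries, none of the 11 being at 0, and their part in the *Myl4* result was not tested.

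The other 4 genes past the threshold, *Usmg5*, *Mt2*, *Tmsb4x* and *Ndufa3*, have coding sequences under 300 bases. So do 15 of the 20 genes with the lowest p among those with at least 50 reads. The coding sequences of these 4 and of *Mt1* are shown because their small size is what the genes share. They were read from GENCODE M21 transcripts (GRCm38), 5′ to 3′ from the start codon to the stop codon, both in capitals, with introns left out.

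Tmsb4x: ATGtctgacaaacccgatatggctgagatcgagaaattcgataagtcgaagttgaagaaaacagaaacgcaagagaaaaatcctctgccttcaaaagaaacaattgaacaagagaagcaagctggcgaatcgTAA
Usmg5: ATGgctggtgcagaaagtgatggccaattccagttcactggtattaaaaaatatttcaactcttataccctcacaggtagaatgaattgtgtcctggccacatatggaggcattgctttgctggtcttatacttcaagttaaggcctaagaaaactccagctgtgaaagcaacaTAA
Ndufa3: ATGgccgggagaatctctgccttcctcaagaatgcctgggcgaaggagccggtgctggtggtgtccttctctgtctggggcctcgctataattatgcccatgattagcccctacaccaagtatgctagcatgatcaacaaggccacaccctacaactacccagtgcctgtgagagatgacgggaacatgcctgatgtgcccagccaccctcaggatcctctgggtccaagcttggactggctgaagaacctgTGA
Mt1: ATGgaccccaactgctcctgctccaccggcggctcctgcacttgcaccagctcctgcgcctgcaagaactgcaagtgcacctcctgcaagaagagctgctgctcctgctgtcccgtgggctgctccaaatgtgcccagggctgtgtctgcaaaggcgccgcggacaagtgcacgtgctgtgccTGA
Mt2: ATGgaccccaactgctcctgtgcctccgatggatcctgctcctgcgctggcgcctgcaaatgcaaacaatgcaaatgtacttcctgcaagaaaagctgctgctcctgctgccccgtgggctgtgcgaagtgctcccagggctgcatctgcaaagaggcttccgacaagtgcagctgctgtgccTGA

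The *Tmsb4x* sequence, on the minus strand at chrX:167207501-167208036, has 44 codons before the stop and encodes thymosin beta 4, which binds actin monomers. *Usmg5*, on the minus strand at chr19:47085958-47086220, has 58 codons and encodes a small subunit of the mitochondrial ATP synthase. *Ndufa3*, on the plus strand at chr7:3617398-3620092, has 84 codons and encodes an accessory subunit of complex I. *Mt1* (chr8:94179311-94180193) and *Mt2* (chr8:94172848-94173427), both on the plus strand, have 61 codons each, 20 of them for cysteine, the residue with which metallothioneins hold zinc and copper. These coding sequences of *Mt1* and *Mt2* are identical at 148 of 186 bases (79.6%), with no identical stretch longer than 20 bases, shorter than the 50-base reads.

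Genes with very short coding sequences were higher in the knockin as a class. The class, coding sequences under 300 bases, was set after the values had been seen and is described without a test. Of its 276 genes, 92 (33.3%) were higher at an unadjusted p under 0.05 and 1 (0.362%) was lower, beside 3.7% and 2.72% of all genes. The 1 lower gene was *Nrgn*, the calmodulin-binding protein neurogranin, at -0.46, named after its value had been seen. In all, 230 of the 276 had a log2 fold change above 0, with a median of 0.41, and 4 passed the adjusted threshold, all higher. Genes with 300 to under 600 coding bases, the next class, had 5.88% higher and 5.62% lower with a median of 0.01. From 600 to under 1200 bases the shares were 2.6% and 3.69%, and from 1200 to under 2400 bases they were both 2.03%. The longest class, 2400 bases or more, had 4.15% higher and 1.59% lower with a median of 0.06.

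The libraries within a genotype differed widely in this class. For 226 genes under 300 coding bases with at least 50 reads, the median log2 difference from the wild-type mean was 0.11, -0.46 and 0.33 in wild-type libraries 1, 2 and 3 and 0.30, 0.31 and 0.64 in knockin libraries 1, 2 and 3. Wild-type replicate 3 thus lay above knockin replicates 1 and 2, and the groups overlapped in this median. Without wild-type replicate 2, 49 genes of the class were higher (17.8%) and 6 were lower, with a median of 0.20. Without knockin replicate 3, 58 were higher (21.5%) and 1 was lower. Without any of the other 4 libraries between 86 and 129 were higher. Where a trend on coding length was removed from each library, 42 (15.2%) were higher and 17 lower, and over all genes the split turned to 440 higher and 787 lower.

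**Figure D2:**
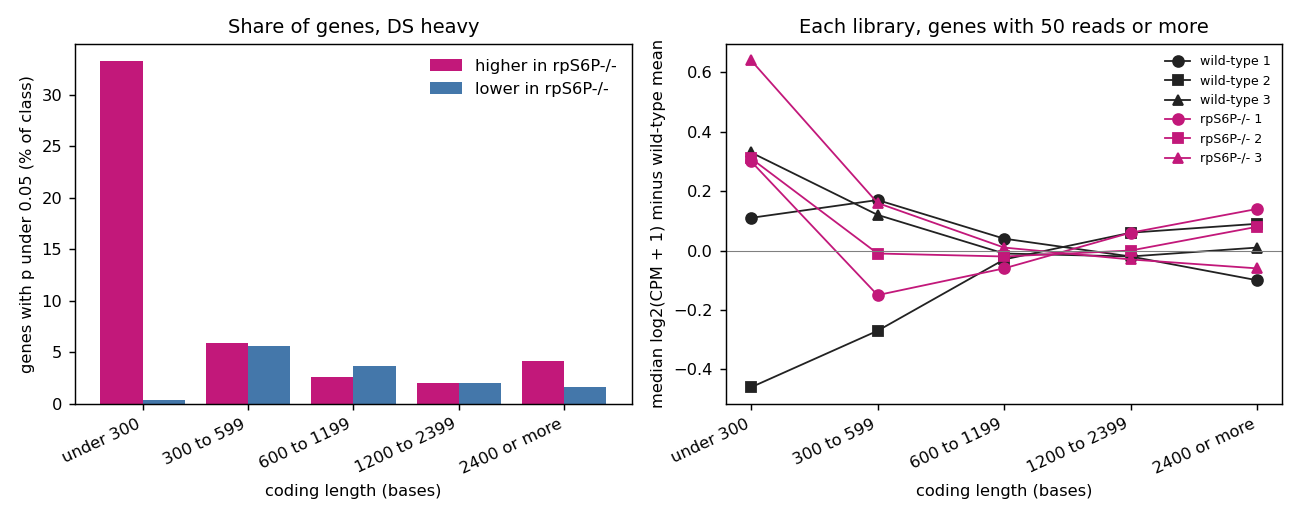
Genes of DS heavy polysomal fractions in 5 classes of coding length in bases. Left, the share of each class with an unadjusted p under 0.05, higher (magenta) or lower (blue) in the knockin, 33.3% and 0.362% in the shortest class; right, the median difference of each library from the wild-type mean in log2(CPM + 1), where wild-type replicate 2 is lowest and knockin replicate 3 highest for the shortest genes.

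In the RNA before fractionation the short genes lay near the other genes. In DS lysates 19 of 15601 genes passed the adjusted threshold (0.122%), 5 higher (0.032%) and 14 lower (0.0897%), and 1415 genes (9.07%) had an unadjusted p under 0.05. The class under 300 coding bases had a median log2 fold change of -0.05 there, with 2.93% of 273 genes higher and 6.59% lower, beside 4.24% and 4.83% of all genes tested. The difference between the heavy polysomal and the lysate genotype effect was higher at an unadjusted p under 0.05 for 78 of 285 short genes (27.4%) and lower for 2, beside 2.73% and 2.18% of all genes. No gene passed the adjusted threshold for this difference in edgeR (811 of 16544, or 4.9%, at an unadjusted p under 0.05) nor in DESeq2. By the methods, lysate and polysomal RNA of a sample came from the same homogenate. Same-numbered libraries correlated at -0.0581 to 0.0393 in their deviations, and different-numbered ones at -0.0567 to 0.0876. With each lysate as a block 6 genes passed, all higher, a value given with that limit. The main test used no block. Without wild-type replicate 3, 17 passed, and without wild-type replicate 2, 1 did.

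In heavy polysomal fractions of the Acb the same class went the other way. Of 284 short genes there, 178 (62.7%) were lower and 1 was higher, with a median of -0.74, beside 11.5% lower and 10.2% higher of all genes tested. Libraries differed within a genotype here too. For 226 short genes with at least 50 reads the median difference from the wild-type mean was 0.38, -0.20 and -0.17 in wild-type libraries. It was -0.29, -0.67 and -1.19 in knockin libraries, so knockin replicate 1 lay close to wild-type replicates 2 and 3. In edgeR none of the 16227 genes tested there passed the adjusted threshold, the lowest adjusted p being 0.0898, while 3518 (21.7%) had an unadjusted p under 0.05. With the transcript length trend removed 3 passed, and DESeq2 was not run on this comparison. Lower values were not confined to the short class. Genes with 300 to under 600 coding bases had 47.5% lower and 0.318% higher, with a median of -0.49. From 1200 to under 2400 bases 3.26% were lower and 15.6% were higher, with a median of 0.15. The genotype effect in the DS minus that in the Acb was above 0 at an unadjusted p under 0.05 for 171 of 292 short genes (58.6%), and below 0 for 1, beside 7.49% and 6.33% of all genes, with a median of 1.12. In this test *Ndufa3* alone passed the adjusted threshold, which is 0.00592% of 16880 genes, with a difference of 2.12 ± 0.34 (adjusted p = 0.0225). *Ndufa3* was at 127, 97.8 and 71.6 CPM in wild-type and at 59.5, 40.9 and 31.1 CPM in knockin libraries of the Acb. With DS libraries left out 1 at a time, this test passed 160 genes without wild-type replicate 3 and 2 without wild-type replicate 1. It passed 0 without wild-type replicate 2, knockin replicate 2 or knockin replicate 3 of the DS. No Acb library was left out. DESeq2 passed 236 genes.

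**Figure D3:**
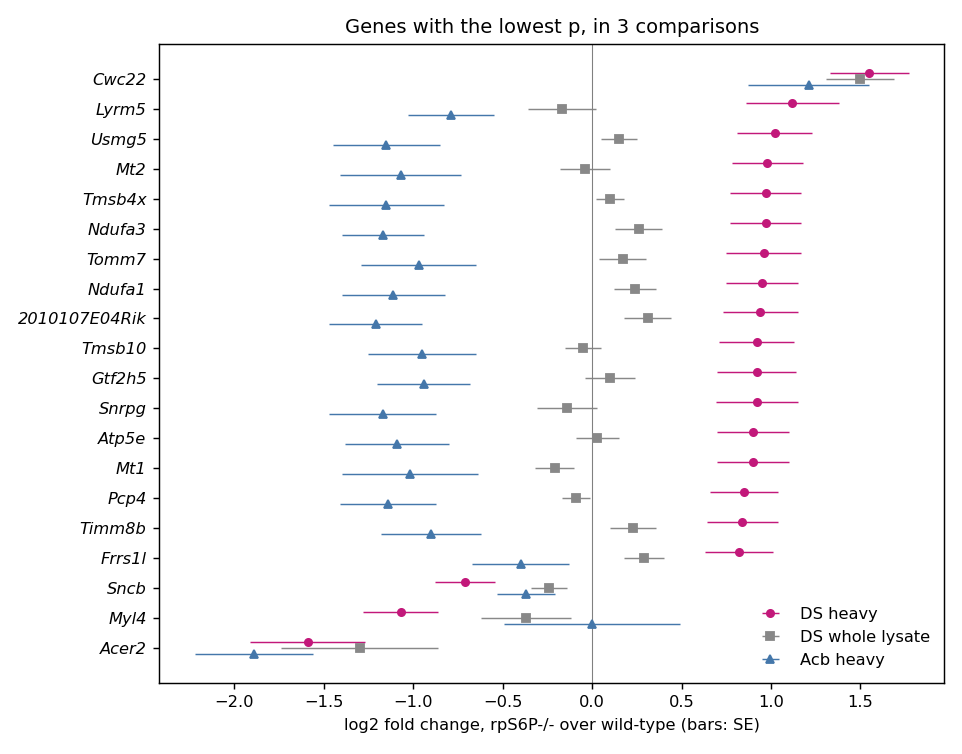
Log2 fold changes of knockin over wild-type (points, with SE bars) in DS heavy polysomal fractions (magenta), DS whole lysates (grey) and Acb heavy polysomal fractions (blue) for the 20 genes with the lowest p in DS heavy polysomal fractions. Most genes lie near 1 in DS heavy, near 0 in the lysate and near -1 in Acb heavy, while *Cwc22*, *Sncb* and *Acer2* keep their sign in all 3. *Myl4* lies below 0 in DS heavy and in the lysate and near 0 in Acb heavy.

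Metallothioneins bind zinc and copper and are made largely by astrocytes, except *Mt3*, which is also found in neurons. All 3 measured members were higher, with a median of 0.90 beside 0.03 over all genes. *Mt2* was at 52.9, 40.9 and 63.8 CPM in wild-type and at 101, 89.5 and 121 CPM in knockin libraries, with no overlap, and rose by a log2 fold change of 0.98 ± 0.20 (adjusted p = 0.0382), a call that was lost with the transcript length trend removed. *Mt1* was at 102, 72.2 and 143 CPM against 203, 157 and 231 CPM (0.90 ± 0.20, adjusted p = 0.069), and *Mt3* at 144, 98.3 and 166 CPM against 207, 194 and 280 CPM (0.74 ± 0.19, adjusted p = 0.242). Knockin replicate 3 was the highest and wild-type replicate 2 the lowest library for each of them. All 3 stayed higher at an unadjusted p under 0.05 with any library left out, the median ranging from 0.68 to 1.15. Their lysate fold changes were -0.04, -0.21 and 0.00 in the same order, and those in Acb heavy polysomal fractions were -1.07, -1.02 and -1.04. Astrocyte markers were measured beside them: 1 of 10, the bicarbonate transporter *Slc4a4*, was higher (0.38 ± 0.18), beside 3.7% of all genes, and none was lower or at 0. The 10 markers summed to between 1320 and 1770 CPM in wild-type and between 1260 and 2240 CPM in knockin libraries. Their part in the metallothionein values was not tested.

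The respiratory chain was represented by 83 nuclear-encoded subunits of complexes I to V, of which 15 (18.1%) were higher and 4 (4.82%) were lower at an unadjusted p under 0.05, with a median of 0.02. The shares over all genes tested were 3.7% and 2.72%. Coding length split the list. Of its 22 members under 300 coding bases 12 were higher (54.5%), none was lower and the median was 0.51, whereas of its 61 longer members 3 were higher (4.92%) and 4 were lower (6.56%), with a median of -0.11. Short genes outside the mitochondrial, ribosomal and selenoprotein lists had 73 of 230 higher (31.7%) and 1 lower, with a median of 0.42. Without wild-type replicate 2, 7 of the short respiratory members were higher, and without wild-type replicate 3, 17 were higher, with a median of 0.20 and 0.79. Leaving out any of the other 4 libraries gave between 8 and 13.

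In complex I, the NADH dehydrogenase, 5 of 36 subunits were higher and 2 were lower. *Ndufa3* was at 96.7, 55.8 and 82.4 CPM in wild-type and at 126, 133 and 199 CPM in knockin libraries (0.97 ± 0.20, adjusted p = 0.0479), a call lost with the transcript length trend removed and with DESeq2's size factors. *Ndufa1*, a small membrane subunit, was at 95.5, 85.8 and 164 CPM against 199, 182 and 286 CPM (0.95 ± 0.20, adjusted p = 0.069). The groups did not overlap in either gene. In complex IV, cytochrome c oxidase, 4 of 16 were higher and none was lower, *Cox7a2* at 443, 266 and 497 CPM against 609, 547 and 771 CPM (0.68 ± 0.19) and *Cox7c* at 55.6, 33.8 and 96 CPM against 98.6, 98.4 and 132 CPM (0.82 ± 0.23). Complex III, the cytochrome bc1 complex, had 2 of 9 higher, the small subunits *Uqcr10* (0.59 ± 0.20) and *Uqcrh* (0.48 ± 0.20). The 4 subunits of complex II, succinate dehydrogenase, lay between -0.23 and -0.03 and none passed.

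The ATP synthase, complex V, had members on both sides, with 4 of 18 higher (22.2%) and 2 lower (11.1%), beside 3.7% and 2.72% of all genes. *Usmg5* was at 175, 123 and 247 CPM in wild-type and at 320, 281 and 503 CPM in knockin libraries, with no overlap (1.02 ± 0.21, adjusted p = 0.0382), and its call was lost with the transcript length trend removed. *Atp5e*, the epsilon subunit of the rotating stalk, was at 93.9, 65.9 and 133 CPM against 163, 161 and 224 CPM (0.90 ± 0.20, adjusted p = 0.069). *Atp5d*, the delta subunit of the same stalk and a longer gene of 507 coding bases, was lower instead, at 489, 335 and 337 CPM against 203, 285 and 288 CPM (-0.58 ± 0.18). It was lower in DS lysates too (-0.53 ± 0.12, adjusted p = 0.0437). Enzymes of the tricarboxylic acid cycle and of glycolysis, mostly longer genes, showed 0 of 14 and 0 of 16 higher at an unadjusted p under 0.05, and 1 glycolytic gene lower, the phosphofructokinase *Pfkp* (-0.45 ± 0.17).

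Mitochondrial import and translation followed the same division. Over all genes 3.7% were higher and 2.72% were lower. Of 23 import genes 2 were higher and none was lower: *Tomm7*, a small subunit of the outer membrane translocase, at 48.7, 48.3 and 84 CPM against 92, 109 and 153 CPM (0.96 ± 0.21), and *Timm8b*, a chaperone of the intermembrane space, at 40, 38.1 and 64.1 CPM against 89.9, 75.4 and 89.8 CPM (0.84 ± 0.20). Proteins of the large mitochondrial ribosomal subunit had 3 of 48 higher and 5 lower, those of the small subunit 1 of 29 higher and none lower. Taking import and mitochondrial ribosome as a whole, 4 of 11 short genes were higher and 0 were lower (median 0.39), whereas 2 of 89 longer genes were higher and 5 were lower (median -0.07).

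Cytosolic ribosomal protein mRNAs are the classic 5′ terminal oligopyrimidine (TOP) mRNAs, whose translation responds to mTOR, and *Rps6* is a member. Its start is shown, 30 bases on the minus strand at chr4:86857353-86857382 around the RefSeq transcription start, with the longest pyrimidine run that begins with C in capitals, 10 bases starting 1 base before the annotated start.

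Rps6: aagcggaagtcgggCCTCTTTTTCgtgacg

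Of 80 ribosomal protein genes tested, 4 were higher (5.0%) and 4 were lower (5.0%) at an unadjusted p under 0.05, beside 3.7% and 2.72% of all genes. None passed the adjusted threshold, and the median was -0.08. Coding length was known for 79 of them. Of the 11 short members 3 were higher (27.3%), whereas of the 68 longer members 1 was higher (1.47%) and 4 were lower (5.88%). *Rpl39*, one of the smallest ribosomal proteins, was at 158, 78 and 192 CPM in wild-type and at 224, 198 and 328 CPM in knockin libraries, with no overlap (0.81 ± 0.22, adjusted p = 0.321). *Rps27l* (1.10 ± 0.34) and *Rps21* (0.51 ± 0.18) were also higher, and *Rpl10a* was lower, at 351, 253 and 267 CPM against 188, 217 and 228 CPM (-0.46 ± 0.18). Ribosomal protein genes have many processed pseudogenes, and how reads were shared among these copies was not examined. Across all genes with a RefSeq start window, 375 began with C and 4 pyrimidines. Of these 4.0% were higher and 4.0% were lower, beside 3.74% and 2.76% of 12095 other genes, with medians of 0.01 and 0.03. RefSeq starts are imprecise, and only 14 of the 59 ribosomal protein genes with a window matched these letters.

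For translation factors and the pathway upstream of rpS6, counts at an unadjusted p under 0.05 stand beside 3.7% higher and 2.72% lower of all genes. Of 52 genes matched as initiation factors by symbol 1 was higher (1.92%) and 3 were lower (5.77%). Only *Eif5b* (-0.40 ± 0.18), the factor that joins the ribosomal subunits, is an initiation factor proper, while *Eif2ak1* (-0.41), *Eif2ak2* (-1.19) and *Eif2ak4* (0.88) encode kinases of eIF2α. None of 12 elongation and termination factors and none of 9 other TOP mRNAs passed, with medians of -0.07 and -0.05. Aminoacyl-tRNA ligases had 1 of 20 lower, *Wars* (-0.43 ± 0.20), and a median of -0.14. None of the 25 genes of S6 kinases, ribosomal S6 kinases, phosphatase and mTOR pathway passed at an unadjusted p under 0.05, and their median was -0.04.

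**Figure D4:**
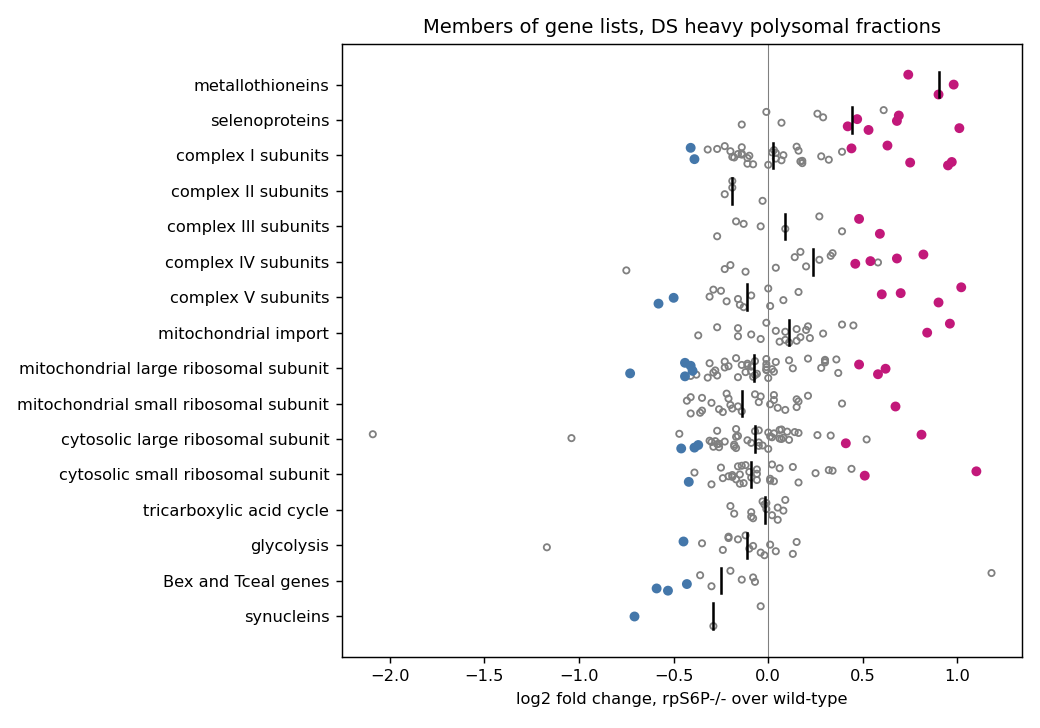
Log2 fold changes of knockin over wild-type in DS heavy polysomal fractions for each member of 16 gene lists, with the list median as a black bar. Filled points passed an unadjusted p under 0.05, higher in magenta and lower in blue; metallothioneins all lie to the right and the medians of complexes I and III stay close to 0.

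Selenoproteins carry selenocysteine and include antioxidant enzymes, and most have longer coding sequences. Of 12 measured 6 were higher at an unadjusted p under 0.05 (50.0%, beside 3.7% of all genes) and none was lower (beside 2.72%), with a median of 0.45. None passed the adjusted threshold in edgeR or DESeq2, and of the 10 members with 300 or more coding bases 6 were higher. *Selt*, a selenoprotein of the endoplasmic reticulum, was at 237, 183 and 304 CPM in wild-type and at 355, 394 and 412 CPM in knockin libraries, with no overlap (0.68 ± 0.18, adjusted p = 0.28). *Sepp1*, the selenium carrier, was at 141, 83.7 and 156 CPM against 172, 230 and 213 CPM (0.69 ± 0.19). *Gpx1*, *Gpx4* and *Sep15* followed at 0.53, 0.42 and 0.47. Without wild-type replicate 2 the list had 2 members higher instead of 6, and without knockin replicate 3 it had 3.

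Among actin genes, both thymosins were far above the rest of their list. *Tmsb4x* was at 747, 482 and 959 CPM in wild-type and at 1189, 1155 and 1957 CPM in knockin libraries (0.97 ± 0.20, adjusted p = 0.0382). *Tmsb10*, of the same 135 coding bases, was at 179, 107 and 165 CPM against 211, 234 and 406 CPM (0.92 ± 0.21, adjusted p = 0.069). In neither did the groups overlap. *Pfn1*, profilin, which also binds actin monomers, was lower (-0.48 ± 0.18). *Sat1*, which acetylates polyamines for their breakdown, was higher at 32.1, 26 and 39.3 CPM against 53.5, 55.3 and 62.8 CPM (0.81 ± 0.21), and *Srm*, spermidine synthase, was lower (-0.45 ± 0.19). Over all genes 3.7% were higher and 2.72% were lower at an unadjusted p under 0.05. Of 13 subunits of RNA polymerase II, *Polr2i* (0.68 ± 0.24) and *Polr2k* (0.49 ± 0.23) were higher (15.4%). Of 39 proteasome subunits *Psmd9* (-0.50 ± 0.20), *Psmb4* (-0.40 ± 0.18) and *Psmb6* (-0.40 ± 0.18) were lower (7.69%).

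The synuclein, Bex and Tceal, and synaptic vesicle lists held members that were lower. *Sncb*, beta-synuclein of presynaptic terminals, was at 1126, 901 and 815 CPM in wild-type and at 473, 612 and 657 CPM in knockin libraries, with no overlap (-0.71 ± 0.17, adjusted p = 0.149 in edgeR and 0.0231 in DESeq2). Its lysate fold change was -0.24 ± 0.10. *Bex2* was at 691, 596 and 621 CPM against 360, 449 and 462 CPM (-0.59 ± 0.17). Of its X-linked family of Bex and Tceal genes 3 of 10 were lower (30.0%, beside 2.72% of all genes) and none was higher (beside 3.7%). *Cplx2*, a complexin that controls vesicle fusion, was at 5167, 3407 and 3752 CPM against 2451, 3202 and 3164 CPM (-0.48 ± 0.16), and *Vamp1*, a synaptic vesicle SNARE, at 233, 189 and 200 CPM against 100, 144 and 160 CPM (-0.62 ± 0.18). Of 25 synaptic vesicle genes 1 was higher and 2 were lower, with a median of 0.00. Knockin replicate 1 was the lowest library for *Sncb*, *Bex2*, *Cplx2* and *Vamp1*.

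Of 27 imprinted genes 5 were higher (18.5%) and 1 was lower (3.7%), beside 3.7% and 2.72% of all genes, and none passed the adjusted threshold in edgeR. *Nnat*, neuronatin, of 246 coding bases, was at 142, 100 and 168 CPM in wild-type and at 183, 216 and 293 CPM in knockin libraries (0.75 ± 0.19). *Nap1l5* was lower, at 975, 781 and 758 CPM against 496, 554 and 618 CPM (-0.59 ± 0.17), with no overlap in either gene. The long non-coding RNAs *Malat1* (0.61 ± 0.20) and *Meg3* (0.46 ± 0.19), which are mainly nuclear, were higher, 2 of 16 on their list. None of 54 clustered protocadherins passed.

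No gene on the medium spiny neuron lists passed the adjusted threshold in edgeR. The list median was 0.09 for shared, 0.17 for D1 and 0.23 for D2 genes, beside 0.03 over all genes. Over all genes 3.7% were higher and 2.72% were lower at an unadjusted p under 0.05. Of 20 shared by D1 and D2 neurons 3 were higher and none was lower: *Pcp4*, a calmodulin regulator of 189 coding bases, at 1209, 778 and 1516 CPM against 1720, 1871 and 2743 CPM (0.85 ± 0.19, adjusted p = 0.069), *Gng7*, the G protein subunit that partners Golf, at 669, 408 and 647 CPM against 773, 990 and 978 CPM (0.67 ± 0.18), and *Arpp21* (0.41 ± 0.17). None of 9 D1 genes passed, and of 8 D2 genes the receptor *Gpr52* was higher (0.76 ± 0.29). Immediate early genes, a readout of recent activity, had 0 of 18 higher and 2 lower, *Egr4* (-0.72 ± 0.28) and *Ier2* (-1.01 ± 0.44). Glutamate receptor subunits had 2 of 26 higher, *Gria2* and *Grm5*, both at 0.37, and 1 lower, *Grik4* (-0.62). None of 14 GABA-A receptor subunits passed, and of 51 voltage-gated channels *Cacna1e* was higher, at 31.2, 71.6 and 93.9 CPM against 159, 135 and 74.8 CPM with overlapping groups (0.90 ± 0.25), and *Kcnc1* was lower (-0.39). Of 11 interneuron genes, somatostatin (*Sst*) was lower (-0.52 ± 0.19) and *Slc5a7*, the choline transporter of cholinergic cells, was higher (0.82 ± 0.32).

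No marker of another cell type passed the adjusted threshold. Oligodendrocyte markers had 0 of 12 past an unadjusted p of 0.05 and summed to between 4320 and 4600 CPM in wild-type libraries and between 3860 and 5960 CPM in knockin libraries, knockin replicate 2 being the highest. Microglial markers had 2 of 10 higher, beside 3.7% of all genes, *Csf1r* at 6.84, 14 and 14.8 CPM against 18.4, 23.4 and 21.8 CPM (0.82 ± 0.29) and *Ctss* at 18.3, 25.8 and 33.8 CPM against 52, 45.7 and 36.3 CPM (0.77 ± 0.23), while the sum of the list was between 247 and 273 CPM against 265 and 373 CPM. *Aif1*, also a microglial gene, lay below wild-type in every knockin library (-0.44 ± 0.25) and did not pass. Ependymal markers had 0 of 6 past an unadjusted p of 0.05, with a median of 0.48 and sums between 17.5 and 23.4 CPM against 19.7 and 30.6 CPM. Endothelial markers summed to between 11.3 and 18.0 CPM in wild-type and between 11.5 and 15.8 CPM in knockin libraries, up to 4 of the 10 being at 0 in a library. Choroid plexus markers had 0 of 6 past an unadjusted p of 0.05, 5 of them above 0, with a median of 0.68. They summed to between 93.4 and 107 CPM in wild-type and between 99.7 and 135 CPM in knockin libraries. *Ttr*, 1 of this list, had between 4 and 45 reads in wild-type libraries and 0, 178 and 36 reads in knockin libraries.

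Base composition moved with genotype in heavy polysomal fractions and in lysates of the DS. Genes with at least 50 reads were put in 10 bins by transcript GC content. In the lowest bin of 1166 genes the median log2 difference from the wild-type mean was -0.02, -0.02 and 0.06 in wild-type and 0.19, 0.08 and 0.12 in knockin libraries. In the highest bin it was 0.04, -0.02 and 0.01 against -0.22, -0.05 and -0.13. The groups did not overlap at either end. At an unadjusted p under 0.05, 8.58% of the lowest bin were higher and 0.858% lower, and 1.11% of the highest bin were higher and 9.09% lower. Spearman's rho between GC content and log2 fold change was -0.259 across 11660 genes, a description, since genes of the same 6 libraries are not independent. In DS lysates rho was larger in size, -0.365 across 11375 genes, and in the highest of 10 bins 0.439% of genes were higher and 21.0% lower. The median of that bin was -0.11, 0.06 and 0.07 in wild-type lysates against -0.18, -0.22 and -0.18 in knockin lysates, again without overlap. With a GC trend removed from each library, 360 genes were higher and 518 were lower at an unadjusted p under 0.05, and 72 of the short genes remained higher (26.1%) with 3 lower.

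**Figure D5:**
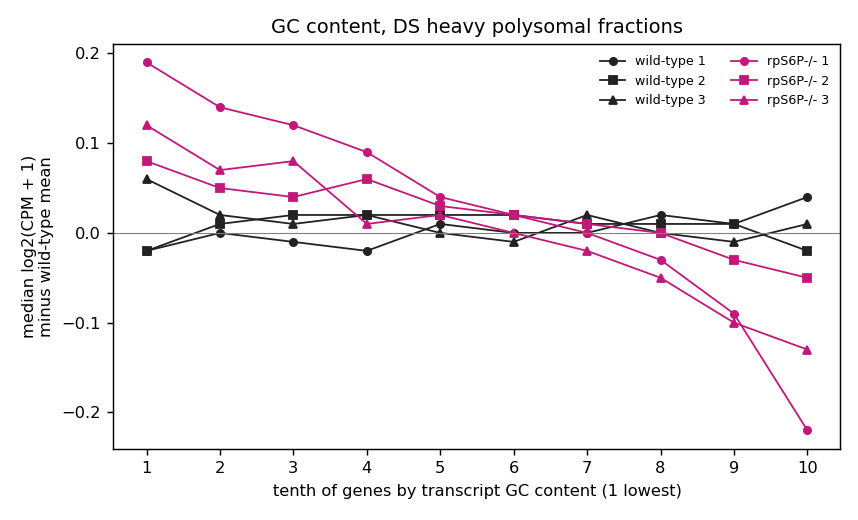
Median difference from the wild-type mean in log2(CPM + 1) for 10 bins of genes ordered by transcript GC content, in the 3 wild-type (black) and 3 knockin (magenta) heavy polysomal libraries of the DS. Knockin libraries lie between 0.08 and 0.19 in the lowest bin and between -0.22 and -0.05 in the highest.

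Among less abundant genes with an unadjusted p under 0.01, at least 50 reads and no overlap, the largest log2 fold changes reported here were those of the non-coding *1700113A16Rik* (2.36 ± 0.82), *Plag1*, a zinc finger transcription factor (2.05 ± 0.76), *Mkln1os* (1.91 ± 0.54), and *Slc38a4*, an amino acid transporter (1.76 ± 0.65). The lowest log2 fold changes besides that of *Acer2* were those of *Pthlh*, the parathyroid hormone-like hormone (-1.65 ± 0.50), *Serpinb8*, a protease inhibitor (-1.50 ± 0.47), *Nr2f6*, a nuclear receptor (-1.38 ± 0.38), and *Gpn2* (-1.24 ± 0.37). Adjusted p-values of these 8 lay between 0.332 and 0.651, and all lay at low levels, *Plag1* at 0, 1.34 and 2.01 CPM against 5.48, 4.79 and 4.17 CPM and *Pthlh* at 10.7, 5.24 and 6.41 CPM against 2.39, 1.85 and 2.86 CPM.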

How the data were processed

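The values used were raw read counts per gene, which the authors deposited without normalisation or filter for 24079 genes, 5363 of them with 0 reads in every library. They had sequenced stranded poly(A) libraries, aligned the reads to mm10 (GRCm38) with TopHat 2.0.13 and Bowtie 2.2.3, discarded alignments with many mismatches, and counted with HTSeq 0.6.1p1 on the strand opposite to the read. Reads shared by near-identical copies can be lost or misplaced by such counting. Contamination with bacterial sequence required repeated sequencing runs. Depth was 11109431 to 27128209 assigned reads in the 6 libraries compared.

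Genes with under 15 reads summed over the libraries fitted were removed, and genotypes were compared with edgeR 4.0.16 (TMM, quasi-likelihood F test, legacy settings) in R 4.3.3 with Benjamini-Hochberg adjustment over all genes tested and a threshold of 0.05. Differences between kinds of RNA or between regions were interaction terms over 12 libraries. DESeq2 1.42.0 and limma-voom (limma 3.58.1) were alternatives, as were other filters and scaling, a replicate block, each replicate left out, all 24 libraries in one fit, and a trend on transcript length removed from each library (loess, span 0.5). Removal of trends on coding length or GC content, and all alternatives for short genes, were chosen after seeing the data. Scripts were tested on simulated data. Heavy polysomal and lysate RNA of a sample were paired through the methods, and residuals of same-numbered pairs correlated at -0.0581 to 0.0393.

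Lengths and GC content came from GENCODE M21 (21208 genes matched, 20427 with a coding length), positions from RefSeq GRCm38.p6 (23977 genes) and start windows from RefSeq (17909 genes). Genes named are those past the adjusted threshold, the 20 with the lowest p and at least 50 reads on average, the 5 largest changes in each direction with an unadjusted p under 0.01, at least 50 reads and no overlap, up to 4 per list by lowest p, *Rps6*, and neighbours of *Rps6*. *Ppp1r1b*, *Bc1*, *Dennd4c*, *Slc24a2* and members of lists beyond these were named after their values had been seen. Some genes that the rule names are not reported here. The lists and classes were chosen with earlier results of these data known. Tables and plots were made in Python 3.11.15 (matplotlib 3.10.9, pandas 2.3.3). The study's own DESeq2 and Xtail results, polysome profiles and behaviour were not used here.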

Additional observations from a re-analysis of the deposited data

Results flagged for a closer look

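The genotype effect on *Ndufa3*, an accessory subunit of complex I, differed between regions in heavy polysomal fractions. It was 0.97 ± 0.20 on the log2 scale in the DS and -1.17 ± 0.23 in the Acb, and the difference of 2.12 ± 0.34 passed edgeR's interaction test (adjusted p = 0.0225). All 3 knockin libraries lay above all 3 wild-type libraries in the DS and below them in the Acb. In the Acb comparison alone none of 16227 genes passed the adjusted threshold in edgeR, while 3518 (21.7%) had an unadjusted p under 0.05. DESeq2 was not run on that comparison. Without wild-type replicate 2, knockin replicate 2 or knockin replicate 3 of the DS no gene passed the interaction test, and no Acb library was left out.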

How the results depend on the processing

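The number of genes past the adjusted threshold in DS heavy polysomal fractions was 7. It was 17 with DESeq2, 15 with limma-voom, 31 with a replicate block, 37 with no filter beyond 1 read, 1 with filterByExpr, 4 with a GC trend removed, 0 with all 24 libraries in one fit (1453 at an unadjusted p under 0.05), and 0 to 29 with a replicate left out. *Cwc22* was among them under every setting except 24 libraries in one fit and without knockin replicate 2. Same-numbered wild-type and knockin libraries correlated at -0.136, 0.0361 and 0.0514 in their deviations, so the numbers did not pair the genotypes, and the block is given only as a value. Counts at an unadjusted p under 0.05 ranged from 676 to 1285 with a replicate left out. Their split of 588 higher and 433 lower became 452 and 703 with the transcript length trend removed, 440 and 787 with the coding length trend removed, 360 and 518 with the GC trend removed, 430 and 560 with the block and the length trend removed, and 530 and 524 with DESeq2. Short coding genes higher at that threshold numbered 42 with the coding length trend removed and 49 to 129 with a replicate left out. In DS lysates 19 genes passed, against 95 with DESeq2, 71 with the block, 3 with the length trend removed and 1 to 56 with a replicate left out. The heavy against lysate test passed 0 genes, 6 with each lysate as a block and 0 to 17 with a replicate left out. The region test passed 1 gene, 236 with DESeq2, 20 with the length trend removed and 0 to 160 with a DS replicate left out. It passed 479 with a block that joined DS and Acb libraries of a genotype by replicate number. Whether same-numbered libraries of both regions belong together was not checked. The causes of these differences between settings were not tested. Of 1249 values for 105 named genes with an unadjusted p under 0.05, 1248 kept their sign, and *Uty*, on the Y chromosome, turned to -0.09 without knockin replicate 3 (up to 1.49 with another replicate left out). None of the genes in the 4 lowest of 10 bins of mean abundance passed the adjusted threshold in DS heavy polysomal fractions, whereas 7 did in the bins above, and how far depth limits such genes was not tested.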
